A study of Rattus norvegicus with 17 samples.

Results

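Chemokines of the interferon-type and homeostatic groups were followed in rat liver after bile duct ligation, with and without ghrelin. The 7 genes were Ccl5, Cxcl9, Cxcl10, Cxcl11, Cxcl12, Cxcl16 and Cx3cl1. Every probe set annotated to exactly 1 of these symbols was taken, which gave 10 of the 31099 probe sets on the array: 3 for Cxcl12, 2 for Cxcl9 and 1 for each of the others. All 10 passed the filter on low values, so each gene was among the 9736 genes tested, of 14217 genes with a probe set of their own on the array.

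Liver RNA of 17 rats was hybridized, with 1 Affymetrix Rat Genome 230 2.0 array per rat. In the ligated ghrelin group, 5 rats were infused with ghrelin at 10 µg/kg/day after bile duct ligation. In the ligated saline group, 6 rats were infused with saline after the same ligation, and in the sham group, 6 rats were infused with saline after an incision of the abdomen alone. All 17 carried an osmotic minipump under the skin, were operated on at week 7, and gave liver at week 9, which was 2 weeks later. Sham rats did not receive ghrelin, so the ghrelin comparison lies wholly within ligated livers. The labels used here give no strain, sex or housing batch. Bile duct ligation blocks the outflow of bile and is a standard rat model of cholestatic injury and fibrosis, while ghrelin is the gastric peptide that stimulates appetite and growth hormone release.

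Chemokines are small secreted proteins that guide leukocytes along their gradients through G protein-coupled receptors. Cxcl9, Cxcl10 and Cxcl11 are induced by interferon gamma and share the receptor CXCR3 on activated T cells and NK cells, and Ccl5, made largely by T and NK cells themselves, acts through receptors that include Ccr1 and Ccr3. Cxcl12 is made constitutively by stromal and endothelial cells, retains cells that carry Cxcr4, and is also bound by the scavenging receptor Ackr3. Cxcl16 and Cx3cl1 differ from the rest in being made as transmembrane proteins with a chemokine head on a mucin stalk, from which the sheddases Adam10 and Adam17 can release them. Their receptors are Cxcr6 and Cx3cr1, and in the liver Cxcl16 is known on sinusoidal endothelium and bile duct epithelium.

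The liver identity of the samples and the ligation label were checked on marker genes. All 12 hepatocyte markers on the array were tested, and their summed intensity was 285753 to 308576 in ligated ghrelin, 262626 to 307893 in ligated saline and 298560 to 320514 in sham livers. Of the 12, 4 fell with ligation, among them Hnf4a by 0.79, Hpd by 0.51 and Ttr by 0.20 on the log2 scale. Over all tested genes 27.2% fell with ligation, so 4 of 12 lies near that share. The 9 bile duct cell (cholangiocyte) markers summed to 7543 to 12147 in ligated ghrelin and 6113 to 19271 in ligated saline livers, against 384 to 743 in sham livers. No 2 arrays held identical values. Array medians of the deposited intensity were 15.4 to 17.5 in the ligated livers and 14.2 to 14.7 in the sham livers. RNA integrity, read as the 3' minus 5' log2 value of beta-actin, was 1.88 to 2.62 in ligated ghrelin, 1.75 to 2.05 in ligated saline and 1.86 to 2.37 in sham livers. The same reading of GAPDH was 0.104 to 0.620 in ligated ghrelin, 0.037 to 0.195 in ligated saline and 0.022 to 0.271 in sham livers. For both controls the highest value came from a ligated ghrelin liver.

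Ligation split the 7 genes. Cxcl16 and Cx3cl1, the membrane-anchored chemokines, rose, Cxcl11 and Cxcl12 fell, and Ccl5, Cxcl9 and Cxcl10 did not pass the test. Across the array 64.7% of the tested genes were called for ligation at an adjusted p under 0.05 (limma, Benjamini-Hochberg), 37.5% of them higher and 27.2% lower, with each share taken over all tested genes. The counts among the 7 chemokines, 2 higher and 2 lower, lay near that background, and so a chemokine being called is not in itself a feature of the group. Counted over probe sets, 2 of 10 rose and 4 fell, where 61.5% of all probe sets were called. The groups did not overlap for 3 of the 7 genes, against 44.5% of all genes. The median log2 change of the 7 genes was 0.20, and that of all genes was 0.07.

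**Figure D1:**
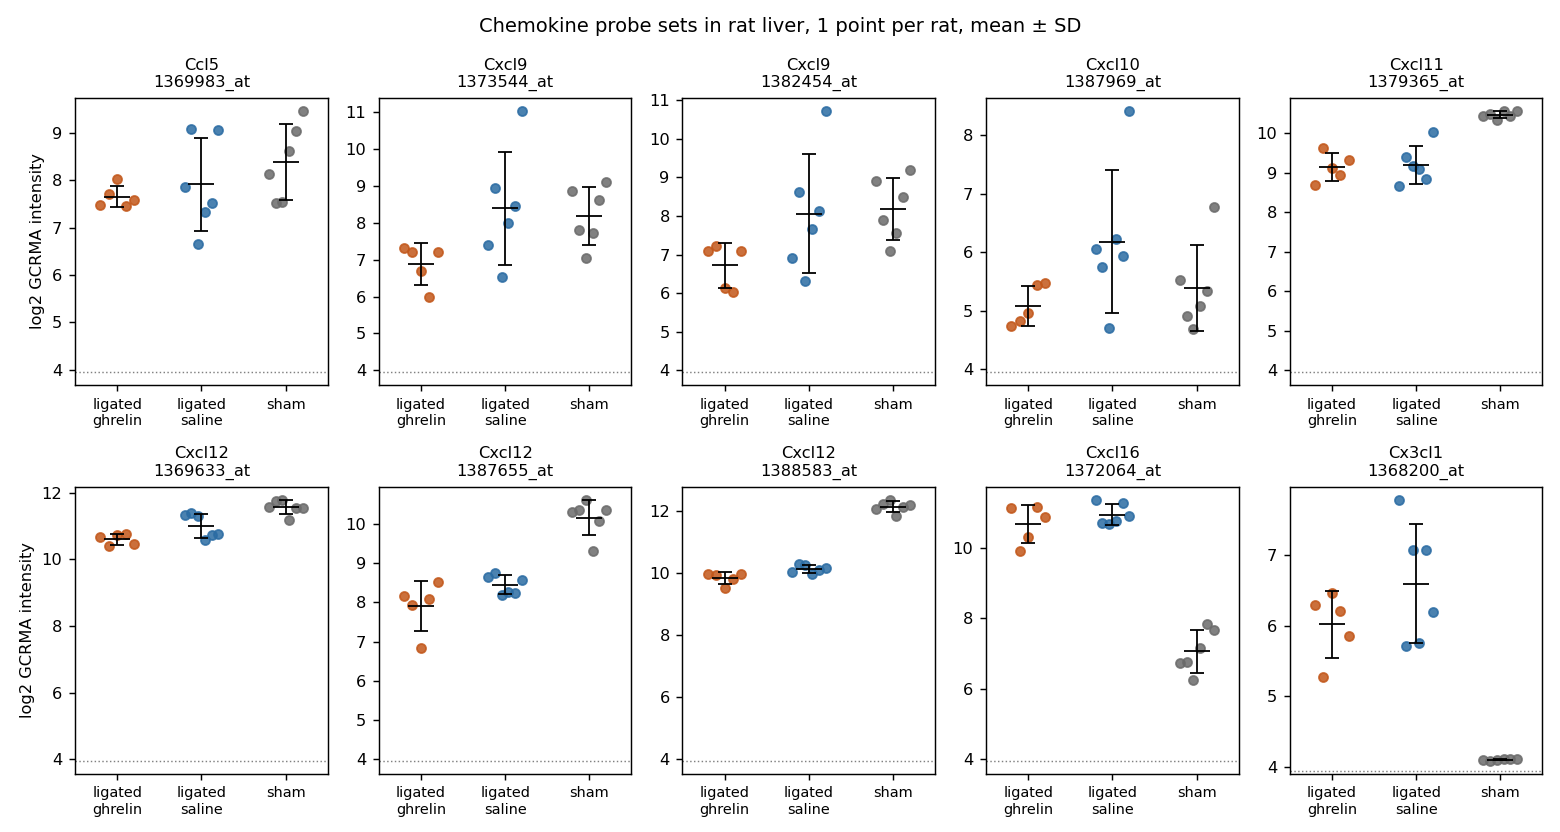
Log2 GCRMA intensity of the 10 chemokine probe sets (vertical axis) in each rat of the 3 groups (horizontal axis), with group mean ± SD as bars and the filter level of 3.95 as a dotted line. Cxcl16 and Cx3cl1 stand higher in all 11 ligated livers than in any sham liver, Cxcl11 and 2 of the 3 Cxcl12 probe sets stand lower, and Cxcl9 and Cxcl10 are widely spread among ligated saline livers.

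Among the membrane-anchored chemokines, Cxcl16 changed most. Its probe set, 1372064_at, read 11.13, 9.91, 10.31, 11.15 and 10.87 on the log2 intensity scale in the 5 ligated ghrelin livers. In ligated saline livers the lowest, median and highest values were 10.66, 10.82 and 11.36, and in sham livers they were 6.24, 6.96 and 7.82. Every ligated liver was above every sham liver, and the sham livers differed among themselves by 2.99-fold. Ligation raised Cxcl16 by 3.88 ± 0.269 on the log2 scale (limma SE, adjusted p = 6.05e-09), 14.7-fold between the group means of log2 intensity. This change stood at percentile 98.8 of all tested genes.

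Cx3cl1, also called fractalkine, is the adhesive ligand of Cx3cr1 on monocytes and NK cells. Its probe set, 1368200_at, read 6.29, 5.27, 6.47, 6.20 and 5.85 in the ligated ghrelin livers. Values in ligated saline livers were 5.72, 6.63 and 7.78 (lowest, median, highest), against 4.09, 4.11 and 4.12 in sham livers. The groups did not overlap, and Cx3cl1 was called higher (limma, adjusted p = 2.45e-06). The sham values spanned only 0.025 log2 units and lay just above the filter level of 3.95, so they give only an upper limit of the sham level. Against it ligation raised Cx3cl1 by at least 2.49 log2 units (SE 0.301), or at least 5.62-fold. Among ligated saline livers Cx3cl1 varied by 4.17-fold, more than Cxcl16 did at 1.63-fold.

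The receptors and cleaving enzymes of these ligands were read from lists of genes. Of 7 receptor genes on the array, only Cxcr4, Ackr3 and Cx3cr1 passed the filter, and the probe sets of Ccr1, Ccr3, Cxcr3 and Gpr75 did not. Cxcr6 was not analysed here. Cx3cr1, the receptor of Cx3cl1, averaged 4.56 in ligated saline and 4.19 in sham livers, a change of 0.37 ± 0.226 that did not pass the test (adjusted p = 0.161). Cx3cr1 lay near the filter level of 3.95 in every group (mean 4.33 in ligated ghrelin livers), so its missing call says little. The ligand was thus called higher while its weakly measured receptor was not, and the difference between their changes was not tested. Both tested sheddases rose, Adam17 by 1.16 ± 0.0821 (adjusted p = 7.52e-09) and Adam10 by 0.70 ± 0.221 (adjusted p = 0.0108). The Adam10 call was lost after quantile normalization (0.48, adjusted p = 0.0581). Mmp2, a matrix metalloproteinase that can clip Cxcl12, rose by 3.95 ± 0.241, and the lysosomal protease Ctss rose by 1.31 ± 0.158. Dpp4, the dipeptidyl peptidase that removes the N-terminal residues of Cxcl10 and Cxcl12, changed by 0.30 ± 0.129 and narrowly missed the threshold (adjusted p = 0.0511). Dpp4 passed it after quantile normalization (adjusted p = 0.0201), with no filter (0.0442), with a stricter filter (0.0433) and with eBayes with trend and robust (0.0449). It also passed in 4 of the fits that left out 1 array. In all, 4 of 5 genes of this list rose and none fell, where 37.5% of all tested genes rose and 27.2% fell.

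The homeostatic chemokine Cxcl12 fell, and its 3 probe sets fell by different amounts. Probe set 1388583_at read 9.96, 9.95, 9.54, 9.82 and 9.97 in ligated ghrelin livers. It read 9.97, 10.14 and 10.28 (lowest, median, highest) in ligated saline livers, against 11.84, 12.19 and 12.37 in sham livers. Ligated and sham livers were fully separated, by a change of -2.005 ± 0.0983 (adjusted p = 1.59e-10), which is 4.01-fold lower after ligation. Probe set 1387655_at read 8.17, 7.92, 6.82, 8.09 and 8.51 in ligated ghrelin livers. It read 8.20, 8.42 and 8.75 in ligated saline livers, against 9.30, 10.33 and 10.61 in sham livers. These groups were separated too, with a change of -1.72 ± 0.249 (adjusted p = 1.62e-05), or 3.30-fold lower.

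Probe set 1369633_at, which stands for Cxcl12 in the counts, read 10.66, 10.41, 10.74, 10.77 and 10.46 in ligated ghrelin livers. It read 10.58, 11.04 and 11.38 in ligated saline livers, against 11.19, 11.57 and 11.80 in sham livers. Here ligated saline and sham livers overlapped, and the fall was -0.56 ± 0.149 (adjusted p = 0.00367), or 1.47-fold. The difference between probe sets was itself larger than the spread between rats. The fall of 1388583_at exceeded that of 1369633_at by 1.44 log2 units and the fall of 1387655_at exceeded it by 1.16. Each gave p = 0.00216 by an exact two-sided permutation test over 12 rats, the smallest value these groups can give, and an adjusted p of 0.00325 over 3 pairs. Probe sets 1387655_at and 1388583_at differed by 0.28, which did not pass (exact permutation p = 0.0887). These pairs were compared after their values were seen, and which Cxcl12 transcripts each probe set reads was not analysed here.

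The Cxcl12 receptors went the other way. Cxcr4, the signalling receptor, averaged 7.39 in ligated saline and 4.85 in sham livers, a rise of 2.54 ± 0.374 (adjusted p = 1.94e-05). Ackr3 averaged 7.88 in ligated saline and 6.17 in sham livers, a rise of 1.71 ± 0.260 (adjusted p = 2.68e-05), and for both genes the groups did not overlap. Markers of stellate and endothelial cells, which can make Cxcl12, were mostly higher or not called, and their part in the fall of Cxcl12 was not tested. Over all tested genes 37.5% rose with ligation and 27.2% fell. Of 14 stellate markers 13 rose, among them the intermediate filament gene Vim by 3.54 ± 0.197, and 1 fell, with summed intensities of 18942 to 25032 in ligated ghrelin and 22044 to 44727 in ligated saline livers, against 4783 to 6583 in sham livers. Of 12 endothelial markers 5 rose, 1 fell and 6 were not called, so the part that rose lies near that of all genes. Their sums overlapped, at 5850 to 8618 in ligated ghrelin, 7500 to 9316 in ligated saline and 6721 to 8892 in sham livers. Kdr, the endothelial VEGF receptor, was the endothelial marker that fell, by 0.82 on the log2 scale, while Ramp2 rose by 1.21 ± 0.148 and the receptor kinase Tie1 by 0.97 ± 0.153, and Tek changed by -0.08 ± 0.103. In whole liver RNA, fewer cells of a type and less RNA per cell cannot be told apart.

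**Figure D2:**
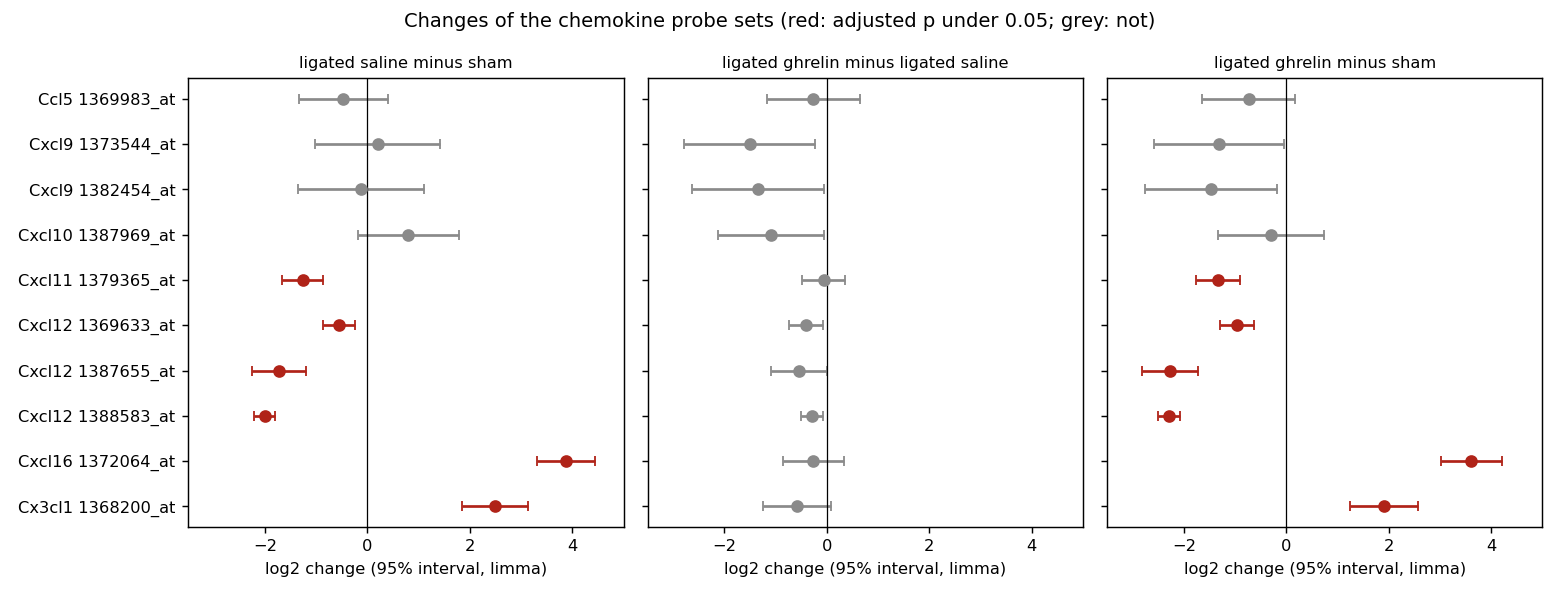
Log2 change of each chemokine probe set (horizontal axis, limma estimate with 95% interval) in the 3 comparisons, 1 panel each. Red marks an adjusted p under 0.05 over all 15965 tested probe sets and grey marks the rest. The ligation panel holds calls on both sides of 0, whereas all 10 estimates of the ghrelin panel lie below 0 and none is red.

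The interferon-inducible ligands of CXCR3 did not change together. Their 3 genes lie next to each other on rat chromosome 14 in the order Cxcl11, Cxcl10, Cxcl9, with no other annotated gene between them. Their promoters are shown because these adjacent genes gave different ligation changes. The sequences are the RefSeq promoters of rat assembly GRCr8, 250 bases before to 50 after the annotated start, on the plus strand at chr14:15973478-15973777 for Cxcl11, chr14:15988816-15989115 for Cxcl10 and chr14:16006916-16007215 for Cxcl9. Capitals mark matches to 3 motifs searched on both strands.
Cxcl11: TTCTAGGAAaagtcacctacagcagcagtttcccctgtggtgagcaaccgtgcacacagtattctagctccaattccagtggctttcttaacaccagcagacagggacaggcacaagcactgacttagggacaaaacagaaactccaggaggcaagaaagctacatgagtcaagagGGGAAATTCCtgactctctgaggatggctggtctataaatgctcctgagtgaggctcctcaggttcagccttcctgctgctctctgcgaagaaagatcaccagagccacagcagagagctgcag
Cxcl10: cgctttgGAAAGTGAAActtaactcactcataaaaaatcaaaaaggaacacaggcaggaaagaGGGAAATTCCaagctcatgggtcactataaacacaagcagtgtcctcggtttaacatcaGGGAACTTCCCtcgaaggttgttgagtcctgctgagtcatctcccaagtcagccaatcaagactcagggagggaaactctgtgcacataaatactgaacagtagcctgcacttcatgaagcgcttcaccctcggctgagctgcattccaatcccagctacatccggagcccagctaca
Cxcl9: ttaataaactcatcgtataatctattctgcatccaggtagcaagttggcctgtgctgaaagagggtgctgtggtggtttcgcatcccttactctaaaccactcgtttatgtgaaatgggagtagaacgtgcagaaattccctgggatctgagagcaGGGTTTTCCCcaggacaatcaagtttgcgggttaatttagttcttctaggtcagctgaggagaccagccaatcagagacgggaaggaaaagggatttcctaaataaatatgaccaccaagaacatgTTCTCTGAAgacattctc
The interferon-stimulated response element core (GAAA and GAAA with 2 bases between), which is held by 3.92% of all 33469 promoters of this length, was found once, in Cxcl10, starting 243 bases before the start. The NF-kB motif (GGGA and CC with 4 bases between) is held by 19.3% of promoters. It was found in Cxcl11 from base -74, in Cxcl9 from base -94, and in Cxcl10 from bases -187, -128 and -127, the last pair of which overlap on opposite strands. The gamma-activated sequence TTCNNNGAA, a STAT site held by 8.87% of promoters, was found in Cxcl11 from base -250 and in Cxcl9 from base 33 after the start. None of the 3 motifs was found in the same window of Cxcl12, Cxcl16 or Cx3cl1. A match is a run of letters and was not tested as a binding site.

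Cxcl11 was the CXCR3 ligand that fell. Its probe set, 1379365_at, read 8.69, 9.61, 9.11, 8.94 and 9.33 in ligated ghrelin livers. It read 8.65, 9.14 and 10.04 (lowest, median, highest) in ligated saline livers, against 10.34, 10.46 and 10.56 in sham livers. The sham livers lay within 0.22 log2 units of each other, and all 6 ligated saline livers were below them. The change was -1.27 ± 0.191 (adjusted p = 2.52e-05), a 2.41-fold lower intensity, at percentile 4.12 of all genes.

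Cxcl10 read 4.73, 4.83, 4.95, 5.44 and 5.46 in ligated ghrelin livers (probe set 1387969_at). It read 4.70, 6.00 and 8.41 in ligated saline livers, against 4.68, 5.21 and 6.77 in sham livers. The groups overlapped, the highest ligated saline value came from rat 6 and the highest sham value from that group's rat 6. The ligation change of 0.79 ± 0.466 did not pass (adjusted p = 0.149). Leaving out ligated saline rat 3 brought it to 1.09 (adjusted p = 0.0429) and leaving out sham rat 6 to 1.07 (adjusted p = 0.04998), while over all such omissions it ran from 0.35 to 1.09.

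Cxcl9 has 2 probe sets, which gave the same picture. Probe set 1373544_at read 7.32, 7.21, 6.68, 5.98 and 7.22 in ligated ghrelin livers. It read 6.53, 8.22 and 11.04 in ligated saline livers, against 7.05, 8.21 and 9.11 in sham livers. Ligated saline livers reached both above and below the sham range and differed by 22.7-fold, with rat 6 highest and rat 3 lowest. The ligation change was 0.20 ± 0.575 (adjusted p = 0.783), and its sign turned to -0.33 without ligated saline rat 6 and to -0.03 without sham rat 3. Probe set 1382454_at read 7.10, 7.21, 6.14, 6.04 and 7.10 in ligated ghrelin livers. It read 6.31, 7.90 and 10.72 in ligated saline livers, against 7.09, 8.19 and 9.19 in sham livers, a ligation change of -0.13 ± 0.580 (adjusted p = 0.862). That sign also turned when sham rat 1 or 6 or ligated saline rat 1 or 3 was left out (0.02 to 0.22), so Cxcl9 has no settled direction after ligation.

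The differences between the CXCR3 ligands were tested rat by rat. Cxcl10 minus Cxcl11 averaged -3.02 ± 0.965 in ligated saline and -5.08 ± 0.692 in sham livers (SD, n = 6 each), so the change of Cxcl10 exceeded that of Cxcl11 by 2.06 log2 units (exact two-sided permutation p = 0.00433, adjusted p = 0.0130 over 3 pairs). The change of Cxcl9 exceeded that of Cxcl11 by 1.46 (exact permutation p = 0.0281, adjusted p = 0.0422). This second difference lost its call after quantile normalization (1.35, adjusted p = 0.0584) and without any of 5 rats, ligated saline 5 or 6 or sham 2, 3 or 4 (1.10 to 1.38). Cxcl10 and Cxcl9 differed by 0.60, which did not pass (exact permutation p = 0.102). The difference between Cxcl10 and Cxcl11 passed under every omission of 1 rat and after quantile normalization.

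Ccl5, a product of T and NK cells, read 7.49, 7.70, 8.02, 7.47 and 7.59 in ligated ghrelin livers (probe set 1369983_at). It read 6.66, 7.69 and 9.08 in ligated saline livers, against 7.52, 8.38 and 9.47 in sham livers. All 3 groups overlapped, and the ligated ghrelin livers were the least spread, with an SD of 0.226 against 0.980 in ligated saline and 0.795 in sham livers. The ligation change was -0.47 ± 0.408 (adjusted p = 0.328), with 3 of 6 ligated saline livers below the lowest sham liver.

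**Figure D3:**
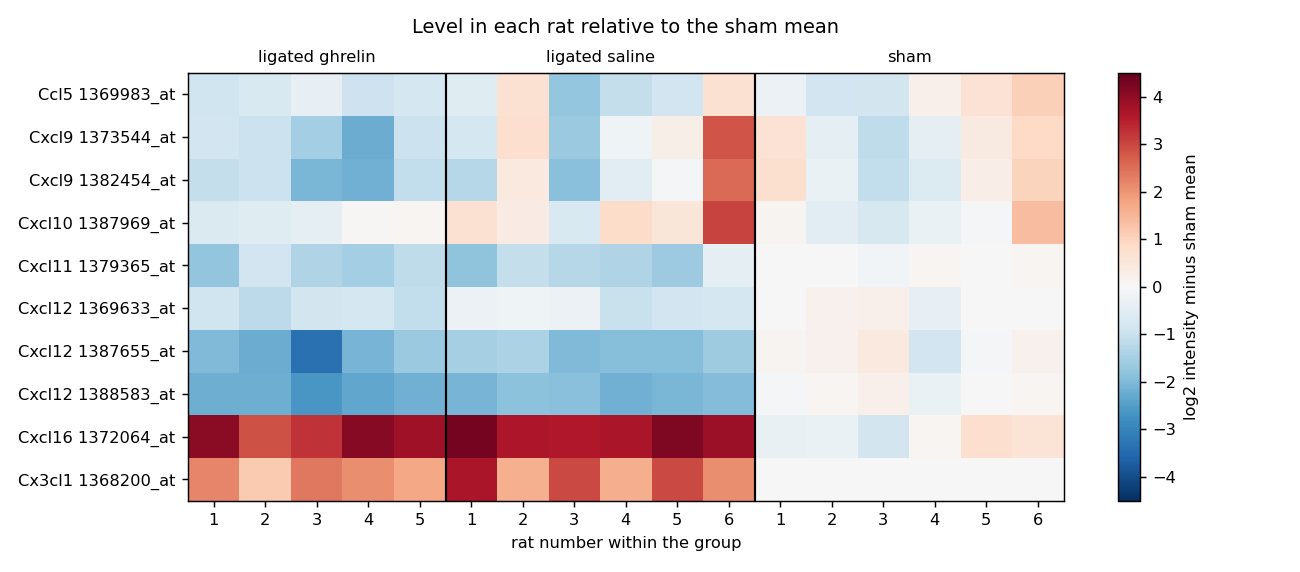
Level of each chemokine probe set (rows) in each rat (columns, numbered within the group) as log2 intensity minus the sham mean, with red higher and blue lower. Cxcl16 and Cx3cl1 are red and the Cxcl12 probe sets blue across all ligated livers, and Cxcl9 and Cxcl10 are darkest red in ligated saline rat 6, at 11.04 and 8.41 on the log2 intensity scale.

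The interferon and NF-kB pathway genes around these chemokines were read as lists. Over all tested genes 37.5% rose with ligation and 27.2% fell. Of 21 genes of the interferon gamma pathway on the array, 15 passed the filter. Of these 15 tested genes, 14 rose with ligation, none fell and 1 was not called, with a median log2 change of 1.11 against 0.07 for all genes. The receptor chains Ifngr1 and Ifngr2 rose by 1.41 ± 0.113 and 1.40 ± 0.0962, the receptor-bound kinase Jak2 by 0.92 ± 0.112 and the transcription factor Irf1 by 1.56 ± 0.213. Ifng itself was above the filter level on 0 of 17 arrays, as were Socs1, Ido1, Il12a and Il12b, and Socs3 did not pass the filter either. The type I interferon response list was divided, with 4 of 19 genes higher, 3 lower and 12 not called, at a median of 0.11. Ifit2, a translation inhibitor, rose by 0.97 ± 0.180. Isg20, an interferon-induced exonuclease, passed the filter through ligated livers alone and was at least 2.00-fold higher in ligated saline livers than the filter level that bounds its sham values. In the same list Stat2, a signal carrier of the type I receptor, fell by 0.72 on the log2 scale, and Ifih1, a sensor of viral RNA, changed by -0.16 ± 0.221. Of 10 NF-kB and TNF genes 8 rose and none fell, at a median of 1.66. Nfkb2 and Relb, partners in the alternative NF-kB dimer, rose by 2.87 ± 0.184 and 2.69 ± 0.243. Nfkb1, the DNA-binding partner of Rela, rose by 1.65 ± 0.119, and Rela, the transactivating subunit of the canonical dimer, changed by 0.15 ± 0.107 (adjusted p = 0.238). Of 15 other chemokines 10 rose, 1 fell and 4 were not called, at a median of 0.76, and 3 of the 15, Ccl20, Cxcl3 and Cxcl6, passed the filter through ligated livers alone. Against the filter level Cxcl6, a neutrophil attractant, was at least 44.1-fold and Ccl20, the ligand of CCR6, at least 15.4-fold higher.

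T and NK cell markers, of cells that carry CXCR3 and make Ccl5, were weakly measured. Only 8 of 23 markers on the array passed the filter, and Cd3d, Cd3g, Cd8a, Cd8b, Klrd1 and Ncr1 did not. The 23 summed to 1082 to 1663 in ligated ghrelin and 1440 to 2847 in ligated saline livers, against 672 to 1308 in sham livers. Ptprc, which all leukocytes carry, makes up much of that sum. Without it the other 22 summed to 371 to 490 in ligated ghrelin and 330 to 1044 in ligated saline livers, against 402 to 732 in sham livers, so the groups overlapped. Among the 8, the phosphatase Ptprc rose by 1.60 ± 0.195 and the helper T cell coreceptor Cd4, also found on macrophages, by 1.10 ± 0.290, while the cytotoxic granule protease Gzma fell by 2.14 on the log2 scale. Of the 8, 3 rose, 2 fell and 3 were not called, at a median log2 change of -0.18. These counts lie near the shares of all tested genes, 37.5% higher and 27.2% lower. The highest sum, with or without Ptprc, in the ligated saline group and in the sham group came from rat 6 of each, the rats with the highest Cxcl9 and Cxcl10 of their groups, and the part of these cells in those values was not tested. Of 13 macrophage markers 11 rose, 1 fell and 1 was not called. Among those that rose were the lysozyme Lyz2 by 1.89 ± 0.216 and the complement chains C1qa by 1.26 ± 0.144 and C1qb by 1.505 ± 0.157. The 13 summed to 32183 to 51032 in ligated ghrelin and 41223 to 56890 in ligated saline livers, against 16572 to 28420 in sham livers. The 9 cholangiocyte markers were called higher, at a median of 5.03, and 3 of them, the secretin receptor Sctr, the chloride channel Cftr and the claudin Cldn4, passed the filter through ligated livers alone. Against the filter level Sctr was at least 40.3-fold and Cftr at least 22.3-fold higher, and with these 3 genes at their bounds the median was 4.87. The surface protein Cd24, near the filter level in sham livers (mean 3.96), rose by 7.01 ± 0.329. Cxcl16 and Cx3cl1 rose between sham and ligated livers too, as did 37.5% of all tested genes. Stellate markers also rose, at a median of 2.59. The part of bile duct cells, macrophages or stellate cells in the rise of Cxcl16 and Cx3cl1 was not tested.

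**Figure D4:**
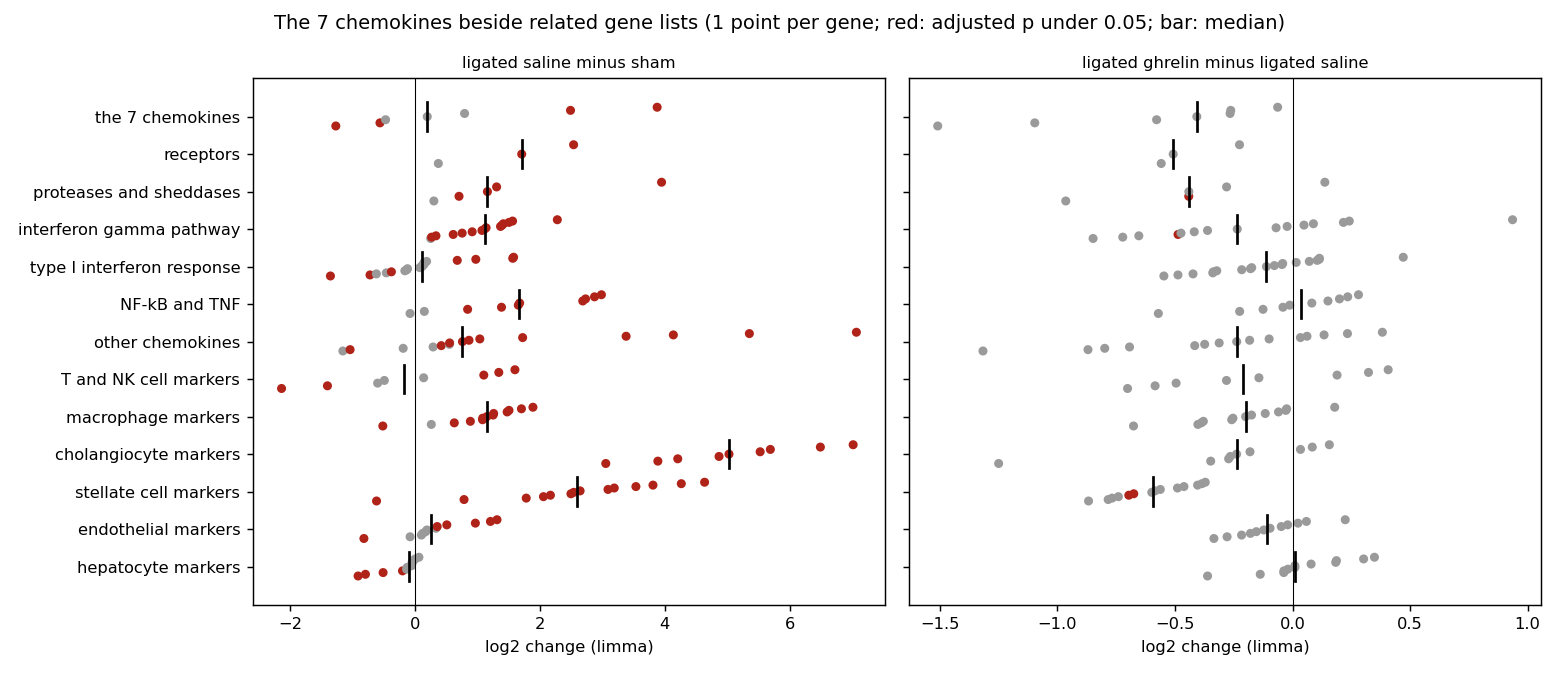
Log2 change of each tested gene (1 point per gene, horizontal axis) in the 7 chemokines and 12 related gene lists (rows), for ligation on the left and ghrelin on the right, with red for an adjusted p under 0.05 and a bar at the list median. Sham values below the filter level enter as measured. In the ligation panel the medians are 0.20 for the 7 chemokines, 1.11 for the interferon gamma pathway and 5.03 for cholangiocyte markers, and in the ghrelin panel few points are red.

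Genes with the most similar profiles were found by the root mean square difference over the 17 arrays, each profile taken as log2 value minus its sham mean. For Ccl5 the nearest genes were Gzmm, a lymphocyte granule protease, at 0.251 log2 units and Il2rb, the interleukin 2 receptor beta chain, at 0.480. For Cxcl9 they were Cd3e, a chain of the T cell receptor complex, at 0.766 and the protease inhibitor Slpi at 0.782, with Ccl5 at rank 4 (0.824). For Cxcl10 they were Klrk1, an activating receptor of NK cells, at 0.552 and Samsn1 at 0.596. The CXCR3 ligands were not each other's nearest genes, with Cxcl9 at rank 359 for Cxcl10 (0.876). These distances describe the 17 arrays and carry no test. For Cxcl11 the nearest were Cldn14, a tight junction protein, at 0.205 and Rdh7, a retinol dehydrogenase, at 0.226. For Cxcl12, read by probe set 1369633_at alone, they were the nucleoporin Nup35 at 0.258 and Paip2b, a translation regulator, at 0.270. The other Cxcl12 probe sets, which fell further with ligation, were not searched. For Cxcl16 they were the adhesion receptor Adgrg2 at 0.425 and Enc1 at 0.427, and for Cx3cl1 they were Tgfb1i1 (0.282), a focal adhesion protein, and the RNA-binding protein Rbms3 (0.286).

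No relation between these ligands over the rats of a group passed correction. For Cxcl9 and Cxcl10, over the 6 ligated saline livers gave Pearson's r = 0.905 (exact permutation p = 0.0292) and Spearman's rho = 0.486 (exact permutation p = 0.356). Without the 2 rats farthest from the median of Cxcl9 the r was -0.737, so this relation rests on those rats. Over the 6 sham livers r was 0.841 (exact permutation p = 0.0222), rho was 0.943 (exact permutation p = 0.0167) and r without the 2 farthest rats was 0.947. Of 12 such relations among Ccl5, Cxcl9, Cxcl10 and Cxcl11, chosen after the values were seen, the lowest Benjamini-Hochberg adjusted p was 0.0917 for r and 0.200 for rho.

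Ghrelin in ligated rats changed none of the 7 chemokines past the threshold. In this comparison 2.34% of all genes were called by limma, so 0 of 7 lies near the background, and 3 of the 7 had an unadjusted p under 0.05, as had 21.96% of all genes. By exact permutation without adjustment, Cxcl10 (p = 0.0476) and the Cxcl12 probe sets 1387655_at (p = 0.0368) and 1388583_at passed 0.05. All 7 estimates, and those of all 10 probe sets, were below 0, with a median of -0.41 against 0.01 for all genes. That shared sign is a description, since 1 set of 6 ligated saline arrays enters every estimate. For Cxcl11 the estimate was near 0 and turned to 0.01 when array medians were set equal.

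Cxcl9 had the lowest ghrelin estimate of the group. It averaged 6.88 ± 0.565 in ligated ghrelin livers (SD, n = 5) and 8.39 ± 1.54 in ligated saline livers (SD, n = 6), a change of -1.51 ± 0.603 that did not pass limma's test over all probe sets (adjusted p = 0.163). The 95% interval was -2.78 to -0.23, and the value stood at percentile 0.0822 of all genes. The second Cxcl9 probe set gave -1.34 ± 0.608 (adjusted p = 0.216). Without ligated saline rat 6, the highest of its group, the estimate for 1373544_at was -0.98. Cxcl10 averaged 5.08 ± 0.345 in ligated ghrelin and 6.18 ± 1.22 in ligated saline livers, a change of -1.10 ± 0.488 (adjusted p = 0.211 by limma), and -0.65 without ligated saline rat 6. Both genes were low in all 5 ligated ghrelin livers relative to the ligated saline mean, yet the groups overlapped.

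The remaining ghrelin estimates were smaller. Cxcl12 changed by -0.41 ± 0.156 for 1369633_at (adjusted p = 0.1497), -0.55 ± 0.261 for 1387655_at (adjusted p = 0.240) and -0.29 ± 0.103 for 1388583_at (adjusted p = 0.122). For 1388583_at all 5 ligated ghrelin livers lay below all 6 ligated saline livers, though the highest ligated ghrelin and the lowest ligated saline value both read 9.97. Separation of these groups occurred for 4.53% of all genes. Its exact two-sided permutation p was 0.00433 before any adjustment. Cx3cl1 changed by -0.58 ± 0.315 (adjusted p = 0.301, 95% interval -1.24 to 0.09), Cxcl16 by -0.26 ± 0.282 (adjusted p = 0.626, interval -0.86 to 0.33), Ccl5 by -0.27 ± 0.428 (adjusted p = 0.760) and Cxcl11 by -0.06 ± 0.201 (adjusted p = 0.885, interval -0.49 to 0.36). A change of up to 0.49 log2 units lower for Cxcl11 therefore remains within its interval. Between the CXCR3 ligands, the ghrelin change of Cxcl9 was 1.45 log2 units below that of Cxcl11 and that of Cxcl10 was 1.03 below, and neither passed (exact permutation, adjusted p = 0.0877 for each over 3 pairs).

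Few genes around the chemokines passed the test for ghrelin, as over the whole array, where 2.34% of all tested genes were called. The sheddase Adam17 averaged 8.79 in ligated ghrelin and 9.23 in ligated saline livers, a change of -0.44 ± 0.0861 (adjusted p = 0.0253). That call was lost without ligated saline rat 1, ligated ghrelin rat 2 or ligated ghrelin rat 5, with adjusted p up to 0.0740, and when only the groups compared were fitted (adjusted p = 0.0588). Jak2, the kinase of the interferon gamma receptor, changed by -0.49 ± 0.117 (adjusted p = 0.0430). It was no longer called without any 1 of 13 arrays, all except sham 3, sham 4, ligated saline 4 and ligated ghrelin 4. It also missed the threshold after quantile normalization (adjusted p = 0.0504), with equal array medians (0.0621), with no filter (0.0644) and with only the groups compared (0.0743). The stellate markers Col3a1 (-0.68 ± 0.145, adjusted p = 0.0342) and Rgs5 (-0.70 ± 0.158, adjusted p = 0.0389) were called too. Leaving out ligated saline rat 1, 3 or 5 or ligated ghrelin rat 1, 2 or 5 ended both calls, and ligated saline rat 6 or ligated ghrelin rat 3 that of Rgs5. Both were also lost with no filter (adjusted p = 0.0518 for Col3a1 and 0.0602 for Rgs5) and with only the groups compared (0.0661 and 0.0641). No gene of the receptor, type I interferon, NF-kB, other chemokine, T and NK cell, macrophage, cholangiocyte, endothelial or hepatocyte lists was called. The liver transcription factor Hnf4a came nearest, at 0.35 ± 0.102 (adjusted p = 0.0714). Its groups did not overlap, as was so for 4.53% of all genes. Hnf4a was called with equal array medians (0.42, adjusted p = 0.0433) and with the stricter filter (adjusted p = 0.0484). The monocyte attractant Ccl2 averaged 7.32 in ligated ghrelin and 8.19 in ligated saline livers, a change of -0.87 ± 0.307 (adjusted p = 0.121), and Ccl20 and Cxcl6 changed by -0.24 ± 0.300 and -0.37 ± 0.359. The secreted bile duct marker Spp1 changed by -1.25 ± 0.462 (adjusted p = 0.136), Ifih1 by -0.55 ± 0.232 (adjusted p = 0.187) and Tek by -0.28 ± 0.108 (adjusted p = 0.155). Of the receptors, Cxcr4 changed by -0.51 ± 0.392, Ackr3 by -0.56 ± 0.272 and Cx3cr1 by -0.23 ± 0.237.

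Ligated ghrelin livers were also set against sham livers. This comparison shares its ligated ghrelin arrays with the ghrelin comparison and its sham arrays with the ligation comparison, so its values are given side by side and not as separate support. Of the 7 genes 2 were higher and 2 lower, where 56.2% of all genes were called, 35.0% of all genes higher and 21.2% lower. Cxcl16 was 12.2-fold higher (3.61 ± 0.282, adjusted p = 4.2e-08) and Cx3cl1, against the near-constant sham values, at least 3.76-fold higher (at least 1.91, SE 0.315, adjusted p = 8.95e-05). Cxcl11 was 2.52-fold lower (-1.33 ± 0.201, adjusted p = 3.79e-05), and the 3 Cxcl12 probe sets changed by -0.97 ± 0.156, -2.27 ± 0.261 and -2.29 ± 0.103, with all 5 ligated ghrelin livers below all 6 sham livers in each. Separation of the groups occurred for 39.0% of all genes. Cxcl9 lay on the edge of the threshold, at -1.31 ± 0.603 (adjusted p = 0.0771) for 1373544_at and -1.47 ± 0.608 (adjusted p = 0.0515) for 1382454_at. It was called in several alternative settings and not in others. With only the groups compared, limma's adjusted p was 0.0127 for 1373544_at and 0.00777 for 1382454_at. Exact two-sided permutation without adjustment gave p = 0.0195 and p = 0.0130 for these probe sets. Cxcl10 changed by -0.30 ± 0.488 (adjusted p = 0.624) and Ccl5 by -0.74 ± 0.428 (adjusted p = 0.159).

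Ordered by mean level, the groups ran from high to low as ligated saline, ligated ghrelin and sham for Cxcl16 and Cx3cl1, and as sham, ligated saline and ligated ghrelin for Cxcl11 and all 3 Cxcl12 probe sets. In each of these orders the ligated saline and ligated ghrelin neighbours did not differ past the threshold, whereas both differed from sham past it. For Cxcl9 and Cxcl10 the ligated ghrelin mean was lowest of the 3, and no pair of groups passed the test in the fit as reported. For Cxcl9 the pair of ligated ghrelin and sham livers did pass in several of the other settings, some of which also used all 17 arrays. For Ccl5 the means ran from sham through ligated saline to ligated ghrelin, again with no pair past the threshold.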

How the data were processed

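Liver RNA of 17 rats was measured on Affymetrix Rat Genome 230 2.0 arrays. The authors deposited 1 intensity value per probe set and array, made with GCRMA per the submitters' processing notes, on the linear scale (2.14 to 61840). The GCRMA version is not given in the sources used here, nor are its settings. GCRMA models background from probe sequence, which pulls weak signals to a common low level. Here log2 was taken of the deposited intensity values with no pseudocount. A probe set was kept when it exceeded the median of all deposited values (15.5, log2 3.95) on at least 5 arrays, which kept 15965 of 31042 probe sets that are not controls. Platform annotation named 1 gene for 20826 probe sets, several for 436 and none for 9780, and 20758 were matched by gene identifier to RefSeq GRCr8. The kept probe set with the highest mean stood for its gene (9736 genes).

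The fit used limma 3.58.1 (R 4.3.3) with a mean per group on all 17 arrays and no covariates, with eBayes (14 residual, 2.54 prior degrees of freedom) and Benjamini-Hochberg adjustment over all kept probe sets, at a threshold of 0.05. The script was tested on simulated data. Differences between genes and single probe sets were tested by exact two-sided permutation over rats. The labels give no batch. Arrays are numbered within groups in the order of deposit, and their number limits precision. Rats are separate animals by the labels. Named genes were the members, all receptors, the 3 lowest p for ligation and the 1 lowest for ghrelin of each other list, Ifng, Irf1, Adam10, Adam17 and Dpp4, list genes called for ghrelin, and the 2 nearest profiles per member. List genes named only because they did not pass the filter, or passed it through ligated livers alone, were chosen after their values were seen. Members, lists and rules were chosen with earlier results of these data known.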

Additional observations from a re-analysis of the deposited data

How the results depend on the processing

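The settings tried were quantile normalization, equal array medians, no filter, a stricter filter (log2 7.67, 8539 probe sets), fits of only the groups compared, eBayes with trend and robust, exact permutation without adjustment, and leaving out each array. The calls of Cxcl11, Cxcl12, Cxcl16 and Cx3cl1 for ligation kept their direction and side of the threshold in every setting that measured them. Cx3cl1 was not kept by the stricter filter, which left 1 chemokine gene higher for ligation and 1 for ligation with ghrelin. Scaling moved the median ligation change over probe sets to -0.11 (quantile) and -0.15 (equal medians) from 0.04, and the split of all calls to 4508 higher and 6221 lower and to 4127 and 6456, against 5468 and 4357. Without the filter it was 6035 and 16195. The count of probe sets called for ghrelin depended strongly on the setting, with 355 as reported, 542 (quantile), 611 (equal medians), 154 (no filter), 500 (stricter filter), 118 (only the groups compared) and 495 (trend and robust).

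For ligation with ghrelin, Cxcl9 1373544_at was called with only the groups compared (-1.31, adjusted p = 0.0127). Cxcl9 1382454_at was called after quantile normalization (-1.59), equal medians (-1.59), the stricter filter (-1.47), only the groups compared (-1.47) and trend and robust (-1.47). Unadjusted exact permutation passed 0.05 for ghrelin in Cxcl10 (-1.10, p = 0.0476), Cxcl12 1387655_at (-0.55, p = 0.0368) and 1388583_at (-0.29, p = 0.00433). With equal medians the ghrelin change of Cxcl11 turned to 0.0051 and the ligation change of Rela to -0.0399. In that setting Tek was called lower for ligation (-0.27, limma adjusted p = 0.0353). The ligation difference Cxcl9 minus Cxcl11 was 1.35 and missed the threshold after quantile normalization. The causes were not tested.

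Leaving out 1 array gave ranges for ligation of -0.33 to 0.57 for Cxcl9 1373544_at, -0.66 to 0.22 for 1382454_at and 0.35 to 1.09 for Cxcl10. For ghrelin they were -0.18 to 0.10 for Cxcl11 and -0.37 to 0.02 for Cx3cr1, which turned without ligated saline rat 1 (0.0193). For ligation with ghrelin they were -1.54 to -1.09 for Cxcl9 1373544_at and -1.69 to -1.27 for 1382454_at. Differences of the ligation change ran from 1.10 to 1.83 (Cxcl9 minus Cxcl11), 0.42 to 0.79 (Cxcl10 minus Cxcl9) and 0.17 to 0.36 (Cxcl12 1387655_at minus 1388583_at). By exact permutation Cxcl10 minus Cxcl9 passed without ligated saline rat 2 (adjusted p = 0.0476). The Cxcl12 pair passed without ligated saline rat 3 (adjusted p = 0.0260). Differences of the ghrelin change ran from -1.32 to -0.75 (Cxcl10 minus Cxcl11) and -1.81 to -1.08 (Cxcl9 minus Cxcl11), each passing without ligated saline rat 3. The ghrelin calls of list genes and their losses stand beside those genes. No paired analysis was possible because the numbers in the labels are not shared between groups. Weak signals near the filter level, above all Cx3cl1 in sham livers and Cx3cr1 in every group, limit what sizes mean.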
